A study of Mus musculus with 6 samples.

Results

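The 39 genes described here work in G2, in mitosis and in the splitting of the cell, and are among the 37006 genes measured on the arrays. They were picked by gene name among the non-control probes (the older name Cdc2a counted as Cdk1), and 75 of 56598 probes belong to them. The rule used no measured value, but the genes were chosen with earlier results of these data known. In each sample the cells were monocytes from bone marrow of C57BL/6J mice aged 6-8 weeks, isolated by magnetic sorting and put straight into culture for 60 h with 20 ng/mL M-CSF, the growth factor of monocytes and macrophages. The 3 control samples had no further addition and the 3 IFN-beta samples also had the type I interferon IFN-beta at 100 U. Total RNA of each sample was labelled with Cy3 and hybridised to 1 Agilent array. The design asks how the interferon alters transcript levels of monocytes that mature in M-CSF.

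A cell enters mitosis when Cdk1, bound to a B-type cyclin, is switched on. Kinases of the Polo and Aurora families then build the spindle, kinetochores tie chromosomes to it, and a checkpoint holds back the anaphase-promoting complex until all are attached. Many of the genes are silent in resting cells under the DREAM complex and are driven late in the cycle by B-MYB and FOXM1. Both act on the cell cycle genes homology region (CHR) of the promoters, which the MuvB core shared by DREAM and B-MYB binds. Monocytes and macrophages divide in response to M-CSF, and type I interferons are known to slow division in many cell types.

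Promoters were looked up by symbol in a table of RefSeq start sites (GRCm38.p6), which held 33 promoters of 32 of the 39 genes, each from 250 bases before to 50 bases after the start. The letters TTTGAA (the CHR, either strand) stood in 23 of the 33, or 69.7%, against 5878 of 32851 promoters in the table, or 17.9%. The variant TTCGAA stood in 3, or 9.09%, against 1.56% of all. CCAAT, the letters bound by NF-Y, stood in 25, or 75.8%, against 37.4%, and 17 genes had 2 or more of them. The 2 windows of Prc1 overlap and share their matches, which the shares of promoters count in each window. GCGG followed after 4 bases by TTTGAA (a CDE beside a CHR, a subset of the CHR matches) occurred in the promoters of Cdk1 and Cenpf, or 6.06%, against 0.07% of all. A match describes the letters alone.

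6 of these promoters are printed to show the shared letters in genes with different calls. Top2a and Kif11 were called higher with IFN-beta than on controls 1 and 2, and Mki67 and Ube2c lower than on control 3. Cdk1 and Cdc20 had no call, and differences between these genes were not tested. Each printed promoter is the 150 bases before the start in the direction of transcription. Capitals mark the CHR or its variant (TTCAAA is the CHR on the other strand). They lie at chr10:69352913-69353062 (Cdk1, minus strand), chr7:135716380-135716529 (Mki67, minus), chr11:99024190-99024339 (Top2a, minus), chr4:118437344-118437493 (Cdc20, minus), chr2:164769779-164769928 (Ube2c, plus) and chr19:37376232-37376381 (Kif11, plus).
Cdk1: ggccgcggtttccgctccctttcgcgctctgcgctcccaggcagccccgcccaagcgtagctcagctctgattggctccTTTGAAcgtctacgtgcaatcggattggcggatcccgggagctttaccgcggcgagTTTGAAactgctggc
Mki67: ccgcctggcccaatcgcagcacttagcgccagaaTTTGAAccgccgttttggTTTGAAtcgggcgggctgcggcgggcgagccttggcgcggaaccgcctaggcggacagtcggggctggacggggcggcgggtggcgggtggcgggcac
Top2a: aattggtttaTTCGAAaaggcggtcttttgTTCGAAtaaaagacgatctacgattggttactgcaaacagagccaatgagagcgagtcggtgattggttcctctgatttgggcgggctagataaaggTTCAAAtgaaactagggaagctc
Cdc20: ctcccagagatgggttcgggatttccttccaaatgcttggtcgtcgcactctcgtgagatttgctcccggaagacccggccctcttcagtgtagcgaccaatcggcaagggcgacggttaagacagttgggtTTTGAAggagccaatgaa
Ube2c: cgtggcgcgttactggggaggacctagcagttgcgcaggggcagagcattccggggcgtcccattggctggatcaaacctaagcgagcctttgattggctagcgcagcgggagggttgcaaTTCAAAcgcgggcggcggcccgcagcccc
Kif11: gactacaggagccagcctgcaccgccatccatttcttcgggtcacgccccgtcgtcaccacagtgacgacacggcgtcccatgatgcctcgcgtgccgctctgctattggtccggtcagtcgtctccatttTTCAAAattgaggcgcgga

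**Figure D1:**
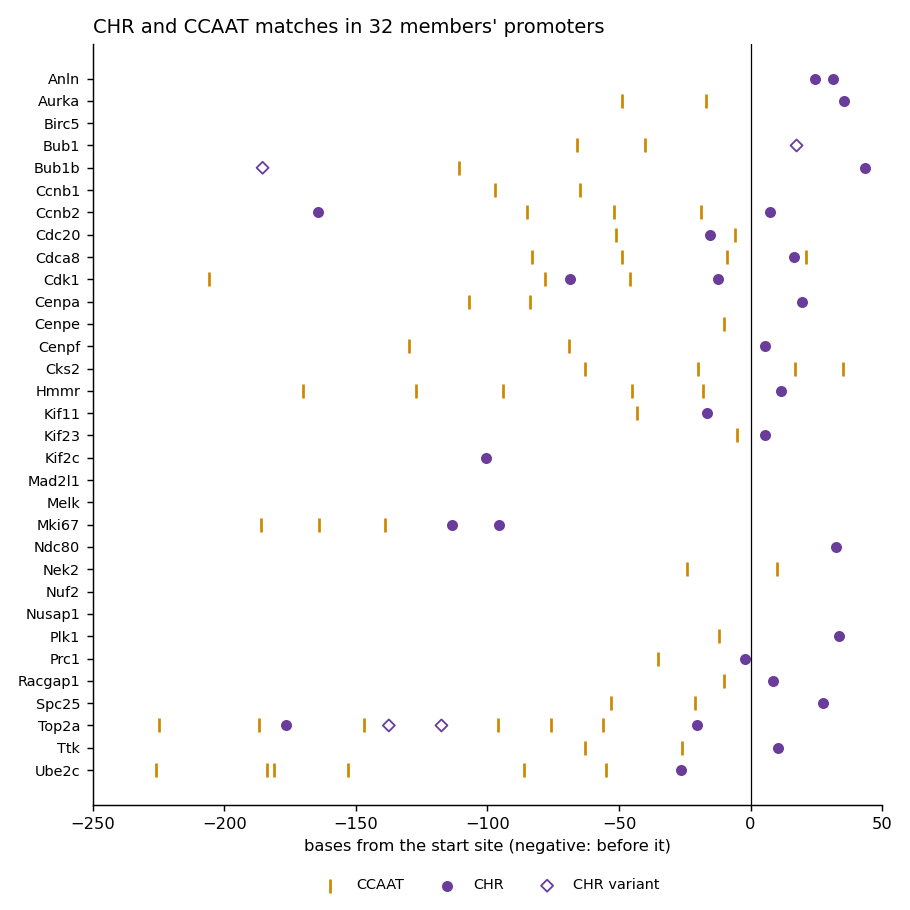
Matches to CCAAT (bars), the CHR (filled circles) and its variant (open diamonds) in the promoters of 32 genes, by distance in bases from the start site (the first of the overlapping windows of Prc1). 23 genes have a CHR or variant match, and 20 of them also a CCAAT.

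Genes with and without a CHR or variant match had overlapping responses. The median log2 fold change against controls 1 and 2 was 0.36 in the 23 with a match (from -0.85 to 0.89) and 0.22 in the 9 without (from -0.04 to 0.60). Against control 3 the medians were -0.50 and -0.65.

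Levels are given as log2 of the processed signal minus the array's 75th percentile, so 0 is the brightness of the 75th percentile probe and 1 unit is a 2-fold step, and levels of different genes are not compared. That percentile was 550 and 528 on controls 1 and 2, 305 on control 3 and 236 to 244 on the IFN-beta arrays. Controls 1 and 2 were nearly alike (robust SD of their differences 0.110 over 17403 genes, against 0.240 to 0.308 between IFN-beta arrays), and control 3 differed from them by 0.331 and 0.351. The arrays of controls 1, 2 and 3 and of IFN-beta 1 were on one slide, those of IFN-beta 2 and 3 on another. Whether replicates were separate cultures or mice is not given in the labels, so p-values measure only the spread between these samples. Markers of monocytes and macrophages lay above background on every array for 12 of 12 genes, and Csf1r, which encodes the M-CSF receptor, stood at 7.15, 7.21 and 7.66 on the controls and 7.28, 7.60 and 7.33 with IFN-beta. Fibroblast markers set controls 1 and 2 apart: 17 of 17 lay above background there, with medians of 4.44 and 4.84 (range 0.73 to 7.31), against 9 of 17 with a median of -4.20 on control 3 (-6.76 to 4.95) and 10 to 12 of 17 with medians of -3.31 to -3.07 on the IFN-beta arrays (-6.60 to 5.66). Pdgfra, Postn, Col3a1, Col6a1 and Lum were above background on controls 1 and 2 alone. Endothelial genes had medians of 0.62 and 0.15 on controls 1 and 2 and of -3.45 to -3.28 on the other arrays, with 7 of 8 called lower with IFN-beta than on controls 1 and 2, as were 4 of 6 tested erythroid genes. Hba-a1, which encodes alpha-globin, was at 7.06 and 6.95 on controls 1 and 2 and at -0.89 to 1.13 elsewhere. For this reason IFN-beta was set against controls 1 and 2 and against control 3 apart, as well as against all 3. These comparisons share the IFN-beta arrays.

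All 39 genes were well above background on all 6 arrays, so the filter on dim probes left none out. Control 3 had the highest level of the 6 arrays for 38 genes, where 33.7% of the 17403 genes above background on all arrays did, and Cdk1 was the exception. It exceeded both other controls for 39 of 39, against 76.4% of all genes. The gap between control 3 and the mean of controls 1 and 2 had a median of 0.86 on the log2 scale (median of all genes 0.37) and ran from 0.36 for Anln to 1.13 for Cdk1, while controls 1 and 2 differed from each other by a median of 0.05 and at most 0.23. The IFN-beta arrays lay between: above controls 1 and 2 and below control 3 for 27 genes (11.7% of all genes), below all 3 controls for Mki67, Cenpa and Anln (15.6% of all), and below control 3 but overlapping controls 1 and 2 for Kif23, Cenpf, Nusap1, Ube2c, Hmmr, Nek2, Racgap1 and Melk. In bulk RNA, a different share of dividing cells and a different amount of these transcripts in each dividing cell cannot be told apart.

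**Figure D2:**
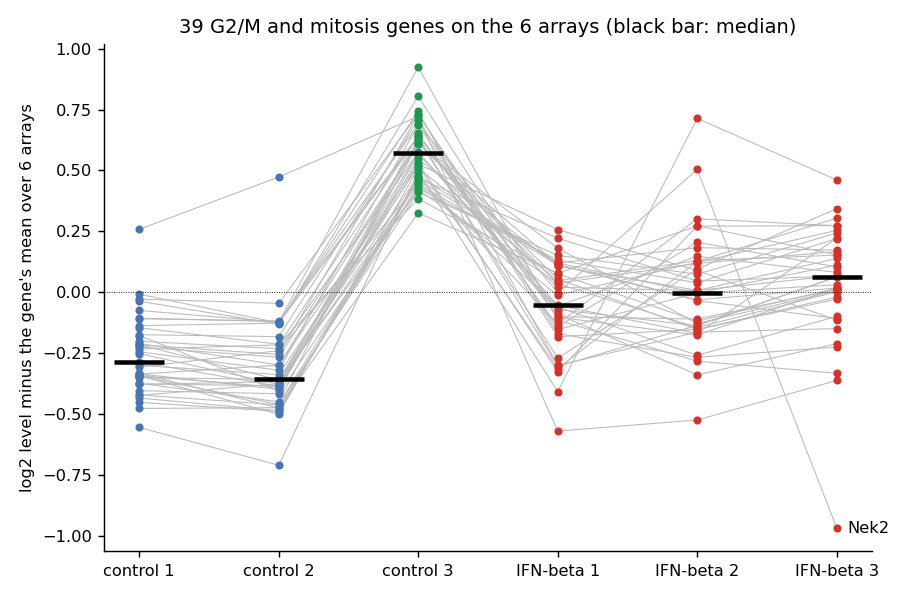
Level of each of the 39 genes on the 6 arrays, as log2 level minus the gene's own mean over the arrays. Lines join a gene, black bars are medians (-0.29, -0.36, 0.57, -0.05, -0.00 and 0.06 from left to right), and control 3 stands above both other controls for every gene.

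Against all 3 controls together, 1 of the 39 genes fell and 0 rose (limma, adjusted p under 0.05), where 7.97% and 11.8% of the 19340 genes tested fell and rose (14.8% and 5.18% with spike-in scaling, 8.46% and 19.4% with normexp background correction). The gene that fell was Anln. At an unadjusted p under 0.05 the same counts held, 1 lower and 0 higher, against 14.8% and 21.5% of all genes. Control 3 widened the spread of the controls for this set. The SD of the set's array medians within groups was 0.35, against 0.10 with control 3 as its own group. The few calls therefore do not show that these genes were unaltered. The fold changes of the set had a median of 0.07, against 0.10 over all genes, and 17 were below 0. The 3 genes whose IFN-beta arrays lay below every control stand beside 16.7% of all genes tested.

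Against controls 1 and 2, 14 of the 39 rose and 1 fell, where 27.7% of 22430 genes tested rose and 20.7% fell (9.39% and 24.7% with spike-in scaling). Those that rose were Ccnb1, Cdc25c, Top2a, Plk1, Aurka, Tpx2, Kif11, Aurkb, Cdca8, Cenpe, Ndc80, Nuf2, Spc25 and Kif2c, and the one that fell was again Anln. Fold changes ran from -0.85 to 0.89 with a median of 0.35, against 0.13 over all genes and 0.25 over the 17403 above background on all arrays. Every IFN-beta array exceeded both controls for 28 genes, against 42.7% of all genes tested, and lay below both for 3, against 28.7%. The rises depended on scaling and on the count of control samples: with spike-in scaling, or with controls 1 and 2 averaged and counted as 1 sample, 0 of 39 rose, and without either control 1 or control 2 the count was 0 as well. The median fold change in these fits with fewer control samples was 0.35, 0.38 and 0.31, and the share of all genes that rose was 9.9%, 10.1% and 8.49%. With normexp background correction 14 of the set rose and 5 fell, with a median of 0.21 against 0.29 over all genes, of which 50.3% rose and 17.3% fell. Fold changes were below 0 for 7 genes, for 16 with spike-in scaling, and for 26 with arrays centred on monocyte and macrophage markers, an alternative chosen after seeing the data. The part that the fibroblast, endothelial and erythroid transcripts and the higher signal of controls 1 and 2 have in these differences was not tested.

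Against control 3, 39 of 39 genes had a fold change below 0, as had 58.8% of 19577 genes tested, and 14 fell and 0 rose, where 8.88% and 7.78% of all genes fell and rose. At an unadjusted p under 0.05, 26 fell and 0 rose, against 19% and 13.7% of all genes. Those that fell were Ccna2, Ccnb2, Mki67, Pbk, Melk, Nusap1, Birc5, Cenpa, Cenpf, Mad2l1, Ube2c, Prc1, Kif23 and Anln. The median fold change was -0.57 (from -1.21 to -0.12), against -0.11 over all genes. For 38 genes every IFN-beta array lay below control 3, against 42% of all genes. Control 3 is a single array, assumed to vary like the others: in a fit without controls 1 and 2, 5 genes were called lower, and without IFN-beta 2 there were 8, where 4.61% and 5.92% of all genes were. The median fold changes there were -0.57 and -0.52, with all 39 genes below 0. Spike-in scaling gave 31, where it called 25.4% of all genes lower and 4.56% higher.

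No gene was called both higher than controls 1 and 2 and lower than control 3. The 14 that rose against the first pair had no call against control 3, 13 fell against control 3 alone, Anln fell against both, and 11 had no call in either. For each gene, the rise over controls 1 and 2 and the fall from control 3 add up to the gap between the controls. That gap had a median of 0.86 and was at most 1.13. The smallest called rise was 0.42 (Nuf2) and the smallest called fall 0.62 (Prc1), so few genes could have had both calls at these sizes. On the arrays that share a slide, the median over the 39 genes was 0.22 and 0.31 higher on IFN-beta 1 than on controls 1 and 2, and its difference from control 3 was -0.60. The values of IFN-beta 2, on the other slide, were 0.34, 0.37 and -0.53, and those of IFN-beta 3 were 0.32, 0.39 and -0.48.

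**Figure D3:**
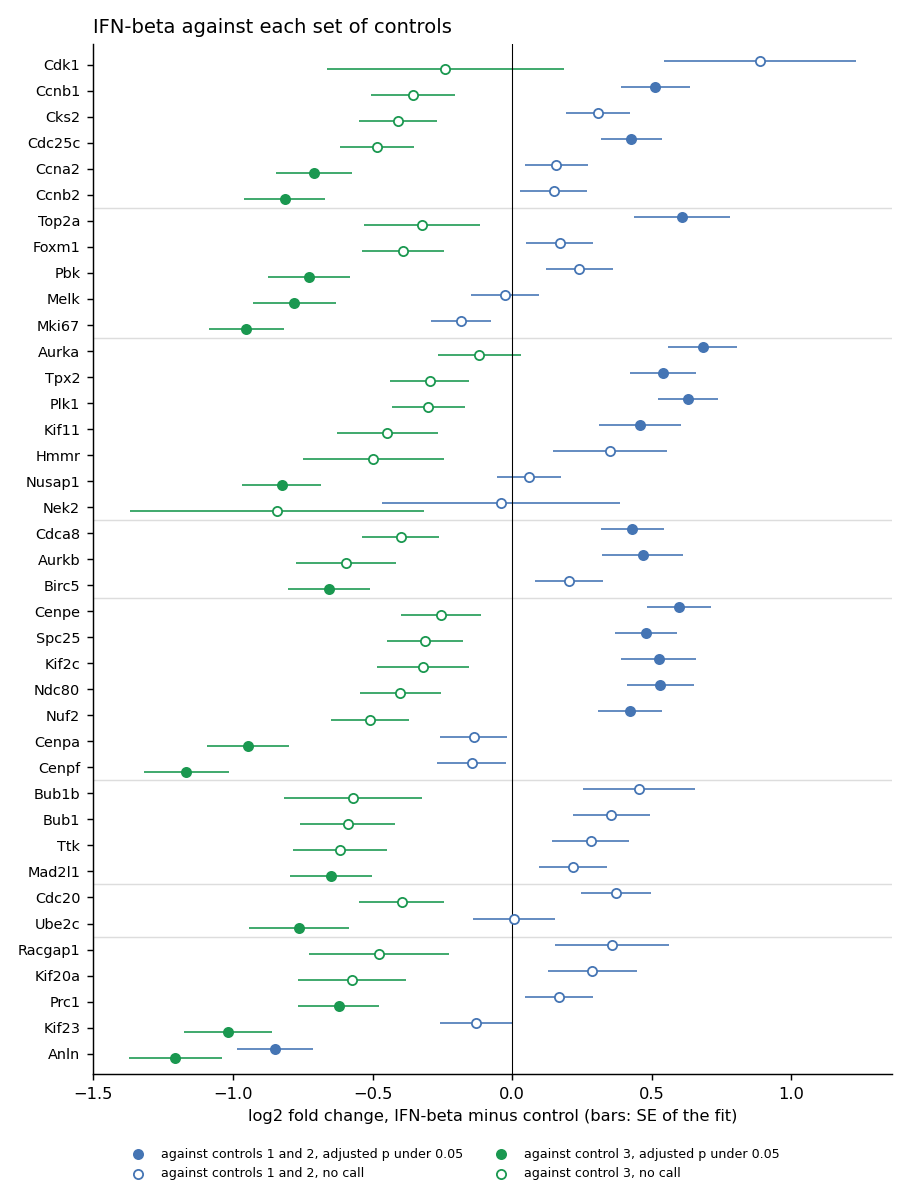
Log2 fold change of each gene (IFN-beta minus control) against controls 1 and 2 (blue) and against control 3 (green), grouped by role, with bars for the standard error of the fit and filled points for an adjusted p under 0.05. Blue points run from -0.85 to 0.89 and green points from -1.21 to -0.12.

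Cdk1, the kinase that drives entry into mitosis, stood at 0.44 and 0.29 on controls 1 and 2, 1.49 on control 3, and 0.59, 1.71 and 1.46 on IFN-beta 1, 2 and 3. IFN-beta 1, on the slide of the controls, was close to controls 1 and 2 and the other IFN-beta arrays were close to control 3. Its probe (chr10:68805423-68807832, mm9) gave fold changes of 0.89 ± 0.34 (SE) against controls 1 and 2 (adjusted p = 0.0832) and -0.24 ± 0.42 against control 3 (adjusted p = 0.729), with no call. Ccna2, the cyclin of S phase and early mitosis, was at 3.53 and 3.55, then 4.41, and with IFN-beta at 3.66, 3.65 and 3.78. The IFN-beta arrays were just above the lower controls and clear of control 3, from which they fell by 0.71 ± 0.14 (adjusted p = 0.0222). Against controls 1 and 2 its difference of 0.16 ± 0.11 was not called (adjusted p = 0.29). A second Ccna2 probe, above background on all arrays, lay nearer to control 3. It gave 0.47 against controls 1 and 2 and -0.27 against control 3, so the place between the controls differed by probe.

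The B-type cyclins, which give Cdk1 its mitotic activity, had different calls, and the difference between them was not tested. Ccnb1 was at 2.70 and 2.58 on controls 1 and 2, 3.51 on control 3 and 3.26, 3.09 and 3.11 with IFN-beta, nearer to control 3. It rose by 0.51 ± 0.12 against controls 1 and 2 (adjusted p = 0.0197) and was at -0.36 ± 0.15 against control 3 (adjusted p = 0.167). Of its 3 further probes, all above background on every array, 1 gave -0.41 against controls 1 and 2, and with the mean of all probes the rise was not called (0.22). Ccnb2 was at 4.14 and 4.10, 5.08, and 4.25, 4.18 and 4.37 with IFN-beta, near the lower controls, and fell by 0.81 ± 0.15 against control 3 (adjusted p = 0.0178), with 0.15 ± 0.12 against controls 1 and 2 (adjusted p = 0.345). Cdc25c, a phosphatase that activates Cdk1, rose against controls 1 and 2 by 0.43 ± 0.11 (adjusted p = 0.025). Cks2, the small subunit bound to cyclin-dependent kinases, had no call in either comparison, at 0.31 and -0.41.

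Among proliferation marks, Mki67, which encodes the Ki-67 antigen that coats mitotic chromosomes, was at 4.74 and 4.72 on controls 1 and 2, 5.50 on control 3 and 4.6, 4.50 and 4.54 with IFN-beta. The IFN-beta arrays were the lowest, just under controls 1 and 2. It fell by 0.95 ± 0.13 against control 3 (adjusted p = 0.00802), which was 1.93-fold brighter, while the difference of -0.18 ± 0.11 from controls 1 and 2 was not called (adjusted p = 0.217). Top2a, the topoisomerase that untangles sister chromosomes, was at 3.34 and 3.29, 4.25, and 3.65, 4.08 and 4.05 with IFN-beta. All IFN-beta arrays lay above controls 1 and 2, and IFN-beta 2 and 3 approached control 3. It rose by 0.61 ± 0.17 against controls 1 and 2 (adjusted p = 0.0327), with -0.32 ± 0.21 against control 3 (adjusted p = 0.336).

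Foxm1, the transcription factor of late cell cycle genes, was at 1.98 and 1.91, 2.5, and 2.20, 2.0 and 2.14 with IFN-beta. Its arrays were packed closely and the lowest IFN-beta array hardly exceeded control 1. Neither difference was called (0.17 ± 0.12 and -0.39 ± 0.15, adjusted p = 0.289 and 0.131). Melk and Pbk, a pair of mitotic protein kinases, fell against control 3 by 0.78 and 0.73 and stood at -0.03 and 0.24 against controls 1 and 2, without a call.

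**Figure D4:**
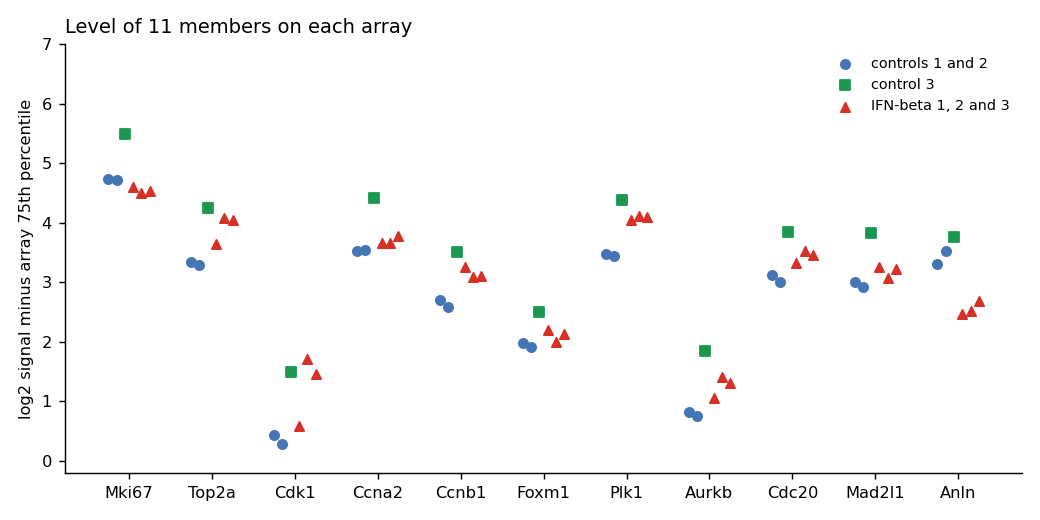
Level of 11 of the genes on each array, as log2 signal relative to the 75th percentile of its array, with controls 1 and 2 as blue circles, control 3 as green squares and IFN-beta arrays as red triangles. IFN-beta values lie between the sets of controls for most, below all controls for Mki67 and Anln, and reach 1.71 for Cdk1, above control 3 at 1.49.

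Of the spindle kinases and motors, Plk1, the Polo-like kinase of spindle assembly, was at 3.47 and 3.43 on controls 1 and 2, 4.38 on control 3 and 4.04, 4.10 and 4.10 with IFN-beta. Its IFN-beta arrays differed by 0.06 in all, the least of the 39 genes, and stood apart from both sets of controls. It rose by 0.63 ± 0.11 against controls 1 and 2 (adjusted p = 0.0065), and its -0.30 ± 0.13 against control 3 was not called (adjusted p = 0.178). Aurka, the Aurora kinase of the spindle poles, was at 3.1 and 3.1, 3.90, and 3.65, 3.84 and 3.85 with IFN-beta, so that IFN-beta 2 and 3 almost met control 3. It had the highest called rise against controls 1 and 2, 0.68 ± 0.12 (adjusted p = 0.00767), and the smallest difference from control 3, -0.12 ± 0.15 (adjusted p = 0.622).

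Tpx2, which activates Aurka on microtubules, rose by 0.54 ± 0.12 against controls 1 and 2, and Kif11, the motor that pushes the poles apart, by 0.46 ± 0.15 (adjusted p = 0.0143 and 0.0498). Nusap1, a microtubule bundling protein, instead fell against control 3 by 0.83 ± 0.14 (adjusted p = 0.0157), with 0.06 against controls 1 and 2. Nek2, a kinase that splits the centrosomes, was at -1.0 and -1.01, -0.20, and -0.89, -0.39 and -1.86 with IFN-beta. Its IFN-beta arrays spanned 1.47, the widest range of the set, with IFN-beta 3 below every other array, and it had no call (-0.04 ± 0.43 and -0.84 ± 0.53). Cdk1, Racgap1, Bub1b and Hmmr were the other genes whose IFN-beta arrays spanned more than 0.5, where the median span was 0.20. Hmmr, a spindle protein, was not called at 0.35 and -0.50.

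The chromosomal passenger complex corrects faulty attachments. Aurkb, its kinase, was at 0.83 and 0.75 on controls 1 and 2, 1.85 on control 3 and 1.06, 1.41 and 1.31 with IFN-beta, midway between. It rose by 0.47 ± 0.15 against controls 1 and 2 (adjusted p = 0.0452) and was at -0.60 ± 0.18 against control 3 (adjusted p = 0.0774). Cdca8 (borealin) was at 3.97 and 3.96, 4.79, and 4.44, 4.31 and 4.43, also midway, and rose by 0.43 ± 0.11 (adjusted p = 0.0263) with -0.40 ± 0.14 against control 3 (adjusted p = 0.107). Birc5 (survivin) was at 5.22 and 5.18, 6.06, and 5.50, 5.30 and 5.42, closer to the lower controls. Birc5 fell by 0.66 ± 0.15 against control 3 (adjusted p = 0.0358) and was at 0.20 ± 0.12 against controls 1 and 2 (adjusted p = 0.217).

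Kinetochore genes ranged widely. Cenpe, the motor that moves chromosomes to the spindle equator, was at 3.39 and 3.35 on controls 1 and 2, 4.22 on control 3 and 3.96, 3.88 and 4.05 with IFN-beta. It rose by 0.60 ± 0.12 against controls 1 and 2 (adjusted p = 0.00998) and was at -0.26 ± 0.14 against control 3 (adjusted p = 0.271). Cenpf, a large protein of the outer kinetochore, was at 2.18 and 2.14, 3.18, and 2.14, 1.97 and 1.93. Its IFN-beta arrays sat at or under controls 1 and 2, and control 3 was 2.25-fold brighter. Cenpf fell by 1.17 ± 0.15 against control 3 (adjusted p = 0.00631), with -0.14 ± 0.12 against controls 1 and 2 (adjusted p = 0.374). Cenpa, the histone variant that marks centromeres, likewise fell by 0.95 ± 0.15 against control 3 (adjusted p = 0.0112). Ndc80, Spc25 and Nuf2, subunits of the Ndc80 complex, which grips microtubules, rose against controls 1 and 2 by 0.53, 0.48 and 0.42, and Kif2c, a microtubule-depolymerising motor, by 0.53, and none of these was called against control 3.

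The spindle checkpoint genes gave 1 call in all. Mad2l1, the inhibitor that binds Cdc20, was at 3.01 and 2.92 on controls 1 and 2, 3.83 on control 3 and 3.26, 3.08 and 3.23 with IFN-beta. Its IFN-beta arrays lay slightly above the lower controls, and it fell by 0.65 ± 0.15 against control 3 (adjusted p = 0.0369), with 0.22 ± 0.12 against controls 1 and 2 (adjusted p = 0.189). Bub1b (BubR1) was at -0.20 and -0.15, 0.85, and -0.05, 0.32 and 0.57, spread over most of the distance between the controls, and was not called (0.45 ± 0.20 and -0.57 ± 0.25, adjusted p = 0.115 and 0.176). The kinases Bub1 and Ttk were not called either, at 0.36 and 0.28 against controls 1 and 2 and -0.59 and -0.62 against control 3. Ttk has further probes above background on all arrays, which gave -0.15, 0.47 and 0.98 against controls 1 and 2, so that 1 of them had the opposite sign there.

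Cdc20, the activator of the anaphase-promoting complex in mitosis, was at 3.13 and 3.0 on controls 1 and 2, 3.84 on control 3 and 3.33, 3.53 and 3.46 with IFN-beta. It lay between the controls and missed the threshold in both comparisons (0.37 ± 0.13 and -0.40 ± 0.15, adjusted p = 0.0563 and 0.139). Ube2c, the ubiquitin-conjugating enzyme of that complex, was at 3.22 and 3.23, 3.99, and 3.05, 3.22 and 3.42. The IFN-beta arrays straddled controls 1 and 2 (0.01 ± 0.15, adjusted p = 0.975) and fell by 0.76 ± 0.18 against control 3 (adjusted p = 0.0408).

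Anln, which encodes the actin- and septin-binding scaffold of the cleavage furrow, was the one gene called lower in every comparison. It was at 3.30 and 3.52 on controls 1 and 2, 3.77 on control 3 and 2.48, 2.52 and 2.68 with IFN-beta (probe at chr9:22136685-22136744, mm9). Here the controls were close together, and all IFN-beta arrays lay well below them. Anln fell by 0.97 ± 0.18 against all controls (adjusted p = 0.00994), by 0.85 ± 0.14 against controls 1 and 2 (adjusted p = 0.00506) and by 1.21 ± 0.17 against control 3 (adjusted p = 0.00761). Its second probe, much dimmer and above background on 4 arrays, differed by -1.34 and -0.90 in the latter comparisons. The call against all controls was not made with slide as a block, within the slide of the controls and IFN-beta 1, or without a filter on dim probes (log2 fold changes of -1.05, -1.05 and -0.97). The call against controls 1 and 2 was not made without control 2 (-0.74), nor that against control 3 with the mean of all probes (-1.05).

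The other midzone genes had no call against controls 1 and 2. Racgap1, which with Kif23 forms centralspindlin, was at 2.36 and 2.32, 3.17, and 2.34, 2.78 and 2.96 with IFN-beta, from the level of control 1 up to near control 3, with no call (0.36 ± 0.21 and -0.48 ± 0.25). Kif23 was at -0.13 ± 0.13 against controls 1 and 2 and fell by 1.02 ± 0.16 against control 3 (adjusted p = 0.0113). Its other probes above background on all arrays gave -0.46 and 0.03 against control 3, and with the mean of all probes it was not called (-0.49). Prc1, which bundles midzone microtubules, fell by 0.62 ± 0.15 against control 3 (adjusted p = 0.041), and Kif20a, a midzone motor, was not called (0.29 and -0.57). Over the set, 21 genes had several probes. With the mean of all probes, the calls of Aurkb and Kif2c against controls 1 and 2 (0.48 and 0.61) and of Ccna2 and Birc5 against control 3 (-0.49 and -0.89) were not made, while Ttk, Cks2 and Foxm1 were called higher than controls 1 and 2 (0.39, 0.50 and 0.48) and Racgap1 lower than control 3 (-0.83). Of 29 further probes above background on all arrays, 12 had the opposite sign to the gene's own probe against all controls, 8 against controls 1 and 2, and 2 against control 3 (Kif23 and Ttk).

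Other genes of division were taken from lists. Of 69 other mitosis genes, 0 fell and 3 rose against all controls, 2 fell and 29 rose against controls 1 and 2, and 18 fell and 1 rose against control 3. Their median fold changes were 0.09, 0.36 and -0.41, beside 0.07, 0.35 and -0.57 for the 39 genes. With spike-in scaling, 0 rose and 2 fell against all controls, 3 rose and 2 fell against controls 1 and 2, and 39 fell against control 3. Mad1l1, a checkpoint protein that anchors Mad2, was the rise with the lowest p, at 1.08, 1.07 and 1.56 on the controls and 2.05, 2.17 and 2.26 with IFN-beta, above every control (0.92 ± 0.19 against all 3, adjusted p = 0.0155). Of 14 core genes of the anaphase-promoting complex and its E2 enzyme, 1 fell and 2 rose against all controls. Ube2s, which extends the ubiquitin chains that Ube2c starts, rose by 1.76 ± 0.22 (adjusted p = 0.00176), from 3.09, 2.85 and 3.60 to 5.0, 4.83 and 5.0. Anapc13 fell by 0.61 ± 0.16 (adjusted p = 0.0378).

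Of 38 genes of G1/S and DNA replication, which act before the mitotic set in the cycle, 1 fell and 4 rose against all controls, 1 fell and 29 rose against controls 1 and 2, and 1 fell and 0 rose against control 3, with medians of 0.43, 0.63 and -0.03. With spike-in scaling, 0 rose and 1 fell against all controls, 10 rose and 1 fell against controls 1 and 2, and 6 fell against control 3 (median -0.44). Cdc45, a part of the replicative helicase, rose from -2.09, -2.18 and -1.48 to -1.07, -0.48 and -0.83 (1.13 ± 0.25 against all controls, adjusted p = 0.019), and Gins3 of the same helicase fell by 0.69 ± 0.19 (adjusted p = 0.0406). With each gene set to its own mean over the arrays, the median of the mitotic set minus that of the G1/S set was 0.14, 0.06 and 0.34 on the controls and -0.27, -0.18 and -0.22 on the IFN-beta arrays. All IFN-beta arrays therefore lay below all controls in this difference, which scaling an array by a constant cannot alter. It is given as a description, with no test.

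**Figure D5:**
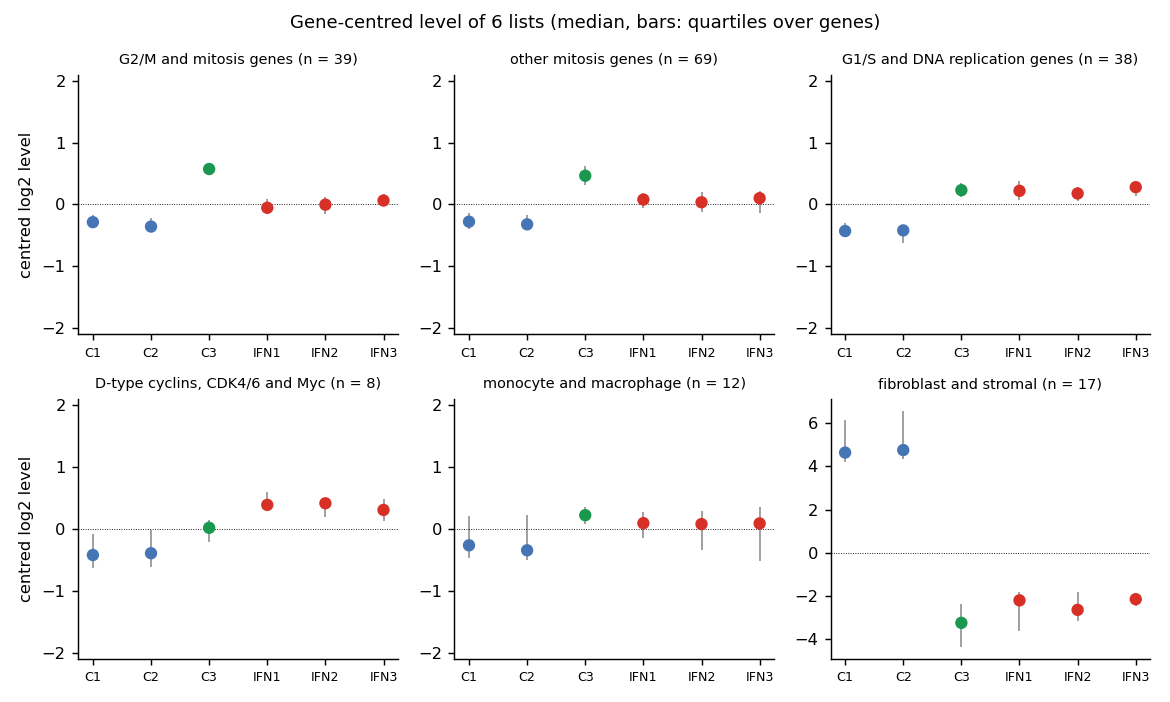
Median over the genes of 6 lists of the log2 level minus each gene's mean over the 6 arrays (C1 to C3 are controls, bars are quartiles over genes), with a wider axis for the fibroblast markers. The G2/M and mitosis genes peak on control 3 at 0.57, the G1/S genes lie at 0.18 to 0.28 with IFN-beta and at 0.23 on control 3, and fibroblast markers are high on controls 1 and 2 alone.

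Upstream regulators moved in both directions. Of 7 tested genes among the D-type cyclins, Cdk4, Cdk6, Myc, Mycn and Mycl, 4 rose against all controls (Ccnd1, Ccnd2, Ccnd3 and Myc). Against controls 1 and 2, 5 of 8 rose (median 0.86), and against control 3, 1 of 7 (median 0.41). Ccnd3 rose from 4.88, 4.88 and 5.38 to 5.86, 5.87 and 5.84 (0.81 ± 0.19, adjusted p = 0.0229). Of 17 cell cycle inhibitors and pocket proteins, 3 rose and 6 fell against controls 1 and 2 (median 0.01) and 2 rose and 5 fell against control 3 (median -0.27). Against all controls 1 rose and 2 fell: Cdkn1a (p21) rose from 2.87, 2.87 and 3.47 to 3.99, 4.02 and 4.17 (0.99 ± 0.21, adjusted p = 0.0166), and Cdkn1b (p27) fell from 2.41, 2.49 and 2.44 to 1.86, 1.60 and 1.76 (-0.71 ± 0.16, adjusted p = 0.0193). Of 20 genes of DREAM, B-MYB complexes and the E2F family, 2 rose and 2 fell against all controls (median 0.18), 9 rose and 2 fell against controls 1 and 2 (median 0.32), and 2 rose and 3 fell against control 3 (median -0.28). Mybl2, which encodes B-MYB, rose from 1.74, 1.76 and 2.69 to 3.27, 3.57 and 3.44, above every control (1.36 ± 0.28, adjusted p = 0.0139), and Tfdp2, a partner of E2F proteins, fell by 1.39 ± 0.21 (adjusted p = 0.0045). The calls of Mad1l1, Anapc13, Cdc45, Gins3, Ccnd1, Ccnd3, Myc, Cdkn1a, Cdkn1b and Mybl2 against all controls were not made without control 1, IFN-beta 2 or IFN-beta 3, nor, except that of Mybl2, without control 2, and those of Anapc13, Ccnd1, Ccnd3 and Myc were also lost without IFN-beta 1. With slide as a block, none of them nor Tfdp2 was called. With spike-in scaling, Mad1l1, Cdc45, Ccnd1, Ccnd3, Myc and Cdkn1a were not called (0.60, 0.81, 0.80, 0.49, 0.65 and 0.67), and 6 inhibitors and pocket proteins were called lower. The direction of these genes was kept in each of these fits. Ube2s and Tfdp2 were called whichever array was left out. The rise of Ccnd2 was not called without IFN-beta 1, without IFN-beta 2, without IFN-beta 3 or with slide as a block. Without a filter on dim probes, none of Ccnd1, Ccnd2, Ccnd3, Myc, Mad1l1, Anapc13, Cdc45, Gins3, Cdkn1a, Cdkn1b and Mybl2 was called. In that fit 1.52% of all genes fell and 3.02% rose. With arrays centred on monocyte and macrophage markers, 0 genes of the D-type cyclin list rose, where 6.25% of all genes did.

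Markers of cell types moved with IFN-beta too, and their part in the values of the 39 genes was not tested. All 12 interferon-stimulated genes rose against all controls (median 4.23), Ifit3 by 4.47 ± 0.18. Of 12 monocyte and macrophage genes 2 rose and 3 fell, with Ly6c2 at 2.89 ± 0.17 and Cx3cr1 at -1.44 ± 0.24 (adjusted p = 8.43e-05 and 0.0067). Of 12 granulocyte genes 10 rose, of 6 basophil and mast cell genes 6, and of 6 tested stem and progenitor genes 4. In these lists Ms4a3 stood at 3.46, Mcpt8 at 3.67 and Gata2 at 2.36. Single genes of other lists were called as well: Kdr, Nkg7, Ms4a1 and Itga2b rose, and Vwf and Klrb1c fell (Klrb1c stood at 0.18 with normexp background correction).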

How the data were processed

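The scanner files, 1 for each of 3 control and 3 IFN-beta samples, give each spot an intensity, the processed signal, which is detrended and holds a surrogate where a spot is dim. The authors extracted this intensity with Agilent Feature Extraction 12.0.3.1 per the file headers, and arrays were not normalized to each other at that step. The same arrays also appear in the deposited table of log2 values. Limma is named for it in the submitters' processing notes and its normalization is not given in the sources used here, so it served as an alternative (r from 0.996 to 0.999 with the log2 processed signal, column medians of 4.82 to 4.83).

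Outlier spots (135 to 174 of 59305 per array) were left out, spots of a probe were averaged, and log2 signals were set to each array's 75th percentile. No spot was saturated, and 49.0% to 63.9% of probes lay well above background on an array. The number of arrays limits the precision. A gene was represented by its brightest probe on average and tested if well above background throughout at least 1 of the groups compared. Tests were limma 3.58.1 (R 4.3.3, with data.table, version 1.17.8) lmFit and eBayes, with p adjusted by Benjamini-Hochberg over all genes tested at a threshold of 0.05. Comparisons with controls 1 and 2 and with control 3 came from 1 fit with 3 coefficients. The tests were tried on simulated data. Figures and promoter searches used Python 3.11.15 (pandas 2.3.3, numpy 2.4.6, matplotlib 3.10.9).

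The genes, the lists and the rule for naming were chosen with earlier results of these data known. Values on every array are printed for 11 genes picked by textbook role and for the highest and lowest fold change against all controls in each role. Of each other list, the called gene with the lowest p in each direction is named, and Csf1r. Probe positions are those of the files (mm9), and promoters are those of a RefSeq table (GRCm38.p6). Alternatives were quantile normalization, spike-in scaling, normexp correction (offset 50), the deposited table, other filters, the mean of all probes, eBayes with trend and robust, slide and replicate number as blocks, fits of the arrays compared alone, and leaving out each array. Averaging controls 1 and 2 and centring on monocyte and macrophage markers were added after seeing the data. Controls 1 and 2 were counted as 2 samples because the labels list them so. Whether they share a preparation cannot be told from the arrays.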

Additional observations from a re-analysis of the deposited data

How the results depend on the processing

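Under every scaling tried, control 3 exceeded all IFN-beta arrays for 37 to 39 genes (42% of all genes tested in the main scaling), while calls and medians moved. The share of all genes was not counted under the other scalings. The count of 39 came from spike-in scaling and monocyte centring. There the median of all genes above background, IFN-beta minus control 3, was -0.49 and -0.40, against -0.08 in the main scaling. Control 3 exceeded both other controls for 38 or 39, as it did for 68.7% to 81.9% of all genes above background on all arrays. Against all 3 controls, quantile normalization and normexp correction each gave 2 genes lower. No filter and slide as a block gave 0, and called 1.52% and 1.89% of all genes lower. Slide 1 alone, with 1 IFN-beta sample, gave a median of 0.00018. Centring on monocyte and macrophage markers, whose median was itself higher with IFN-beta than on every control, gave 4 with a median of -0.33. Without control 3, 14 genes were higher, and the leave-one-out range was 0 to 14 higher, 1 to 1 lower and medians of -0.08 to 0.35. Against controls 1 and 2, quantile normalization gave 2 lower and 8 higher (median 0.17), spike-in scaling 0 higher (median 0.077), normexp correction 5 lower (median 0.21), the deposited values 2 lower (median 0.21), averaging controls 1 and 2 gave 0 higher, and monocyte centring 8 lower and 0 higher (median -0.085). Leaving out an array gave 0 to 18 higher, 0 to 1 lower and medians of 0.31 to 0.38. Against control 3, spike-in scaling gave 31 lower (median -0.98), normexp 24, no filter 3, the arrays compared alone 5, averaging controls 1 and 2 gave 5, and monocyte centring 33 (median -0.89), and leaving out an array gave 5 to 17 lower. Of all genes, monocyte centring called 24% lower against all controls, 32.6% against controls 1 and 2 and 27.5% against control 3. Quantile normalization called 8.72% lower against all controls, and 21.2% lower and 27.6% higher against controls 1 and 2. Without IFN-beta 1, which gave 18 of the set higher against controls 1 and 2, 28.3% of all genes were higher there. The same omission gave 17 of the set and 13.4% of all genes lower against control 3. No filter called 1.91% of all genes lower against control 3. The deposited values called 20.1% lower against controls 1 and 2, and normexp 12.3% lower against control 3. Spike-in scaling moved the median of all genes from 0.10 to -0.22 against all controls, from 0.13 to -0.14 against controls 1 and 2 and from -0.11 to -0.52 against control 3. The median of the set minus that of all genes, -0.03, 0.22 and -0.47, cannot change with such a constant, and against controls 1 and 2 it was 0.066 with quantile normalization, 0.075 with the deposited values, -0.074 with no filter and -0.087 with normexp. Sign changes of a called value were those of Ube2c against controls 1 and 2 under normexp (-0.27) and, under monocyte centring, of Cdc25c (-0.0086), Nusap1 (-0.38), Ube2c (-0.43), Nuf2 (-0.014) and Cdca8 (-0.0062), and of the list gene Klrb1c against all controls under normexp (0.18). The causes were not tested. Fits with fewer arrays have fewer residual degrees of freedom, and the part this has in the changed calls was not tested either. Whether replicate numbers pair the samples cannot be told. Correlations of same-numbered deviations were small (0.072, 0.020 and 0.072), yet each sample correlated best with its own number. With the replicate block, 1 gene was lower and 0 higher against all controls, and over all genes 1333 fell and 1885 rose, against 1541 and 2277. All 39 genes lay well above background, so the number of arrays, 1 for control 3, limits the comparisons.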
